A study of Mus musculus with 48 samples.

Results

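The Zfp genes are mouse genes whose symbol is Zfp followed by digits, most of them encoding zinc finger proteins that bind DNA. Members were the genes of the deposited exon table with such a symbol, without Zfp36, and with a mean exon RPKM of at least 0.5 over all 48 libraries. RPKM is the number of reads on a feature per kilobase of its length, scaled to the library's total. Of 253 Zfp symbols in the table, 234 met this level, out of 11313 genes in all. Zfp420 at 0.508, Zfp345 at 0.510 and Zfp65 at 0.519 RPKM lay just inside the level, and Zfp78 at 0.475, Zfp59 at 0.471 and Zfp738 at 0.452 RPKM just outside it.

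Most proteins of this kind carry a row of C2H2 fingers, each of which folds around a zinc ion and touches a few bases of DNA. Many of them also carry a KRAB domain, which recruits the corepressor TRIM28 and, through it, histone and DNA methylation, and many of these act on retroelements and imprinted genes. KRAB zinc finger genes sit in clusters formed by repeated gene duplication, and mRNAs of zinc finger genes are known as short-lived in mammalian cells. Zfp36 was left out because its product binds RNA and belongs to another class of zinc finger protein.

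The cells were NIH 3T3, an immortal line of mouse embryo fibroblasts. In the shBmal1 line a stable hairpin RNA targeted Bmal1, a transcription factor of the circadian clock that the tables call Arntl, and the shCTRL line carried a control hairpin. Cells of both lines were exposed to 50% horse serum for 2 h to set their clocks, and were collected every 2 h between 24 and 46 h. Each of the 24 cultures gave a library of total RNA and a library of RNA labelled with the nucleoside 4-thiouridine (4sU) and recovered on streptavidin, which gave 4 groups of 12 libraries. The labels name 1 line per hairpin and give 1 library per group and time point, so p-values measure the spread of single libraries around fitted time courses and not the spread between independently made lines. A larger share of the RNA entered the pull-down in shBmal1 than in shCTRL per the labels' protocols, and this cannot be told apart from the hairpin in any 4sU value.

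Recovered depth was 51.0 to 69.8 M reads in shBmal1 total RNA, 53.9 to 76.3 in shCTRL total RNA, 51.8 to 67.6 in shBmal1 4sU RNA and 48.9 to 71.5 in shCTRL 4sU RNA. The median Zfp gene then had 489, 554, 682 and 747 exon reads per library in these groups. Arntl, the targeted gene, had a median of 4.00 RPKM in shBmal1 total RNA and 8.43 RPKM in shCTRL total RNA, and its fitted mean differed by a log2 fold change of -0.92 ± 0.081 (SE, n = 12 per line, limma, adjusted p = 3.67e-09). All 8 fibroblast markers were listed, with a summed level of 4308 to 5100 RPKM in shBmal1 and 5041 to 5864 RPKM in shCTRL total RNA. None of the epithelial, adipocyte or neural markers was listed. Of the leukocyte markers Cd68, Lyz2 and Cd14 were listed and Ptprc was not, with sums of 17.2 to 25.2 RPKM in shBmal1 and 12.8 to 19.99 RPKM in shCTRL. The muscle marker Des lay at 1.51 to 2.04 RPKM in shBmal1 and 0.515 to 0.948 RPKM in shCTRL, the endothelial marker Cdh5 at 0.321 to 0.920 RPKM in shBmal1 and 0.234 to 0.533 RPKM in shCTRL, and the part of these markers in the Zfp values was not tested.

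The promoters of 4 members are shown as examples. Each gene was among the largest called changes of its own direction in total RNA, and each promoter holds one of the motifs searched. They span 250 bases before to 50 bases after the annotated start (RefSeq, build GRCm38.p6), written 5′ to 3′ on the gene's strand. Zfp365 (chr10:67912613-67912912, minus strand) and Zfp296 (chr7:19577037-19577336, plus strand) were higher in shBmal1. Capitals mark the E-box CACGTG, the motif that BMAL1 binds with CLOCK, which begins at base 210 of the Zfp365 window and at base 251 of the Zfp296 window. Zfp809 (chr9:22225453-22225752, plus strand) and Zfp68 (chr5:138619694-138619993, minus strand) were lower in shBmal1. Capitals mark the YY1-type motif AAGATGGC, here on the opposite strand as GCCATCTT, at bases 288 and 268. These examples do not show that a motif goes with a direction. Of the 14 members with an E-box, 3 were higher and 8 lower in shBmal1 total RNA. Among the lower ones, Zfp758 (-0.48) and Zfp943 (-0.44) had larger log2 fold changes than Zfp296 (0.35). The directions of the members with the YY1-type motif were not counted.
Zfp365: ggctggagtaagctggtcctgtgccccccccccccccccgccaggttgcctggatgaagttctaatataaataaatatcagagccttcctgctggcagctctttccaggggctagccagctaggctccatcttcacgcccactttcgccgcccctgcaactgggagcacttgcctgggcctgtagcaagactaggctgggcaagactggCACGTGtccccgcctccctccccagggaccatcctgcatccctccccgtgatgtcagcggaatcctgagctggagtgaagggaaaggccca
Zfp296: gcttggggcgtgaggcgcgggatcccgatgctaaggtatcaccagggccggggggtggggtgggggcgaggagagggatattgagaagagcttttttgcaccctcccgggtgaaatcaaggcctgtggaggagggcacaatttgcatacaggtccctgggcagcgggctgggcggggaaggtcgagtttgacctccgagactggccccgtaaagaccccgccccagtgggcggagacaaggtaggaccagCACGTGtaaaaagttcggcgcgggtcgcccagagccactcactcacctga
Zfp809: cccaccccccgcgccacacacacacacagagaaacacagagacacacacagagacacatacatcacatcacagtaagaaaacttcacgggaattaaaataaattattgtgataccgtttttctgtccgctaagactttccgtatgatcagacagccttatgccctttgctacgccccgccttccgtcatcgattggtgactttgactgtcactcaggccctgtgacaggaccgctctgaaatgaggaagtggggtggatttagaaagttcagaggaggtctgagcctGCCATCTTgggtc
Zfp68: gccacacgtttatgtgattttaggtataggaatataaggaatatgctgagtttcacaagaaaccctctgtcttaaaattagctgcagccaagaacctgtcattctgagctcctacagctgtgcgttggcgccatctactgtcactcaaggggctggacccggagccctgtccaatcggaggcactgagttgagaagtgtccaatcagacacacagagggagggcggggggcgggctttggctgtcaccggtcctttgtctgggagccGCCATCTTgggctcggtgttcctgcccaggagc
An E-box stood in 14 of the 195 member promoters held by the table (7.18%), in 10.8% of 8421 promoters of tested genes and in 7.24% of all 27025 promoters. The YY1-type motif stood in 15 member promoters (7.69%), against 5.34% of tested genes and 2.88% of all promoters. The ETS-type motif CCGGAAG stood in 38 member promoters (19.5%), against 20.1% of tested genes and 9.12% of all. No member promoter held the D-box TTATGTAA or TTACGTAA, which 0.665% of tested genes and 1.06% of all promoters held. Both strands were searched, and the end of the ETS-type motif can share the letters AAG with the start of the YY1-type motif. Median GC content was 55.7% in member promoters, 61.3% in those of tested genes and 52.7% in all. Among the 14 members with an E-box, 3 were higher in shBmal1 total RNA (Zfp365, Zfp296 and Zfp512), 8 were lower and 3 passed in neither direction, with a median log2 fold change of -0.21. Of all 234 members 14.1% were higher and 50% lower, and of all genes tested 34.3% and 33.1%. Zfp292, one of the 8, had more than 1 transcript length behind its values. In this set Zfp942 and Zfp943 have overlapping promoter windows, as have Zfp758 and Zfp944, and all 4 were lower. A match of letters is a description and says nothing about binding in these cells.

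Zfp genes were expressed at low levels. The mean exon RPKM over the 48 libraries ran from 0.508 to 49.9 with a median of 2.76, and 162 of the 234 members lay under 5 RPKM and 6 above 20. The highest was Zfp207, which encodes a mitotic protein that binds BUB3 and microtubules, with 51.3 ± 6.17 RPKM in shBmal1 total RNA and 46.6 ± 3.31 RPKM in shCTRL total RNA (SD, n = 12 each). Zfp703, a transcriptional corepressor, followed with 44.8 ± 3.75 RPKM in shBmal1 and 43.0 ± 2.70 RPKM in shCTRL total RNA. Neither of these 2 genes passed the test between the lines in total exon, at log2 fold changes of 0.05 ± 0.0457 (adjusted p = 0.377) and -0.03 ± 0.0511 (adjusted p = 0.640). Next came Zfp706 at 31.4 ± 2.92 RPKM in shBmal1 and 28.1 ± 2.33 RPKM in shCTRL, Zfp740 at 22.5 ± 1.16 RPKM in shBmal1 and 20.2 ± 0.556 RPKM in shCTRL, and Zfp622, a maturation factor of the large ribosomal subunit, at 26.6 ± 2.06 RPKM in shBmal1 and 21.8 ± 1.99 RPKM in shCTRL. Summed over the members, exon RPKM was 1055 ± 19.7 in shBmal1 total RNA, 1031 ± 18.3 in shCTRL total RNA, 1338 ± 25.3 in shBmal1 4sU RNA and 1278 ± 20.8 in shCTRL 4sU RNA.

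In total RNA more Zfp genes were lower than higher in shBmal1. At an adjusted p under 0.05, limma called 117 of 234 members lower and 33 higher, while 33.1% of the 10980 genes tested were lower and 34.3% higher. The members' median log2 fold change (shBmal1 minus shCTRL) was -0.16, with quartiles of -0.35 and 0.04, and the median of all genes was 0.01. Values were scaled so that the median gene is alike in all libraries of a layer. On RPKM as deposited, 78 members were lower (33.3%) and 57 higher (24.4%), beside 23.9% and 45.4% of all genes, with a median of -0.08 for members and 0.09 for all genes. Among genes at the level of most members, between 0.775 and 12.1 RPKM, 51.6% of 186 members and 34.3% of 6820 genes were lower, and 14.0% of the members and 30.2% of the genes were higher. The changes were small, as they were in most genes. Of the 117 lower members none fell by 1 log2 unit, and of all 10980 genes tested 148 did. Of the 117 lower members 34 were lower at every one of the 12 time points. Of the 33 higher members 9 were higher at each time point. These counts over time points were not made for all genes. Bulk values cannot tell fewer cells that express a gene apart from less RNA per cell.

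**Figure D1:**
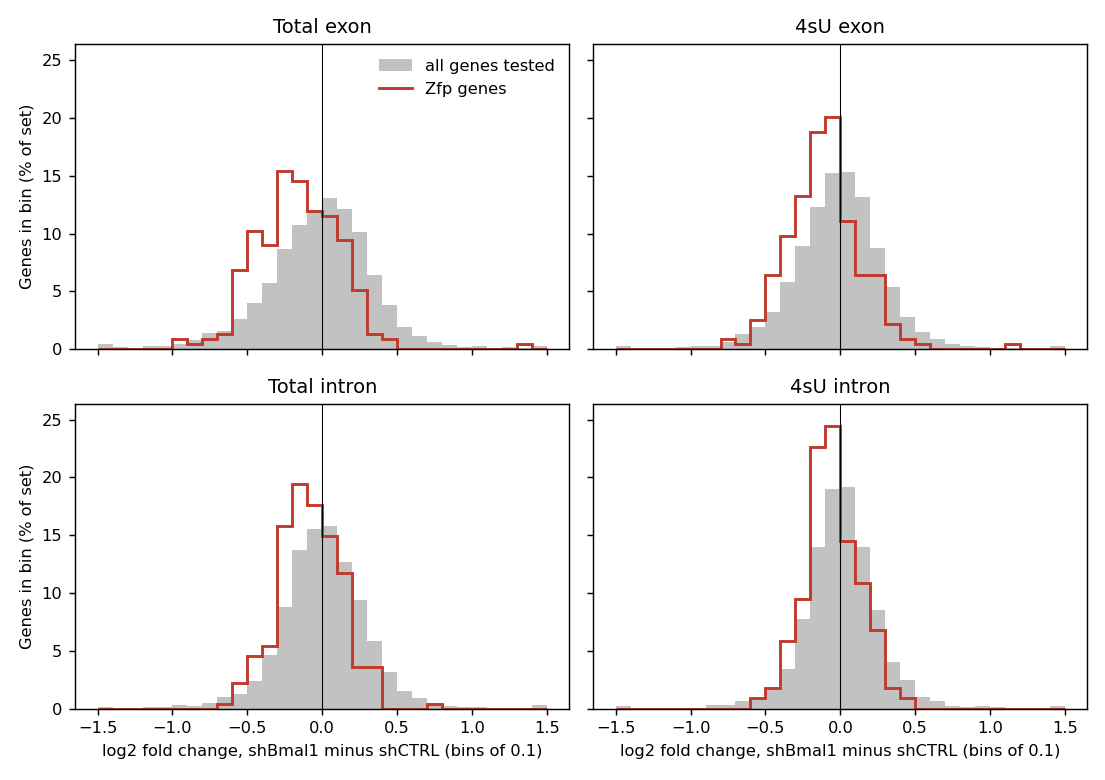
Share of the Zfp genes (red line) and of all genes tested (grey) in bins of the log2 fold change, shBmal1 minus shCTRL, in the 4 layers; genes beyond 1.5 are in the outermost bins. The sets overlap widely, and the median of the Zfp genes is below that of all genes in each layer. It is -0.16 in total exon, -0.10 in 4sU exon, -0.09 in total intron and -0.05 in 4sU intron.

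The shift was seen at most time points. The median member's difference between the cultures of the same time was below 0 at 11 of 12 time points in total exon and at 10 of 12 in 4sU exon. It ran from -0.33 at 32 h to 0.02 at 30 h in total exon, and from -0.32 at 38 h to 0.09 at 34 h in 4sU exon. The median of all genes stayed between -0.0043 and 0.0287 at every time point in both layers, where the scaling to the median gene holds it. The cultures of 30 h and 34 h had the highest members' medians in both layers.

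Among the lower members were Zfp423 and Zfp521, related factors with many fingers that partner EBF proteins and are known for opposite roles in fat cell commitment. Zfp423 had a lowest, median and highest value of 2.42, 3.02 and 3.38 RPKM in shBmal1 total RNA, against 4.20, 5.03 and 6.08 RPKM in shCTRL. No shBmal1 library reached the lowest shCTRL library, and the log2 fold change was -0.86 ± 0.0528 (adjusted p = 1.14e-11). Zfp521 had 6.32, 8.21 and 10.0 RPKM in shBmal1 and 10.96, 13.1 and 13.9 RPKM in shCTRL, again without overlap, with a log2 fold change of -0.75 ± 0.0491 (adjusted p = 3.51e-11). Zfp521 was also lower in 4sU exon (-0.55 ± 0.0667), total intron (-0.68 ± 0.0614) and 4sU intron (-0.49 ± 0.0762), with adjusted p of 1.27e-06, 3.05e-08 and 4.73e-05. Zfp423 fell in 4sU exon (-0.75 ± 0.0618, adjusted p = 6.72e-09), and its introns lay under the level tested.

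KRAB zinc finger genes with known targets moved in both directions. Zfp809, which silences retroviral DNA in mouse embryonic stem cells, had 1.16, 1.69 and 2.54 RPKM in shBmal1 total RNA and 2.28, 3.20 and 3.97 RPKM in shCTRL. Its groups overlapped in part, it was lower at 12 of 12 time points, and its log2 fold change was -0.93 ± 0.0759 (adjusted p = 1.24e-09). Zfp57, which protects DNA methylation at imprinted regions, had 2.35, 2.71 and 3.55 RPKM in shBmal1 and 2.98, 3.47 and 3.79 RPKM in shCTRL (-0.35 ± 0.0600, adjusted p = 2.79e-05). The groups overlapped, while shBmal1 was lower at 12 of 12 time points. Zfp568, a repressor of a placental Igf2 transcript in mouse embryos, was higher, with 1.74, 1.95 and 2.69 RPKM in shBmal1 and 1.4996, 1.66 and 1.98 RPKM in shCTRL (0.18 ± 0.0671, adjusted p = 0.02). Its introns went the other way, with log2 fold changes of -0.21 ± 0.0560 in total intron and -0.15 ± 0.0475 in 4sU intron (adjusted p = 0.00335 and 0.0175).

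**Figure D2:**
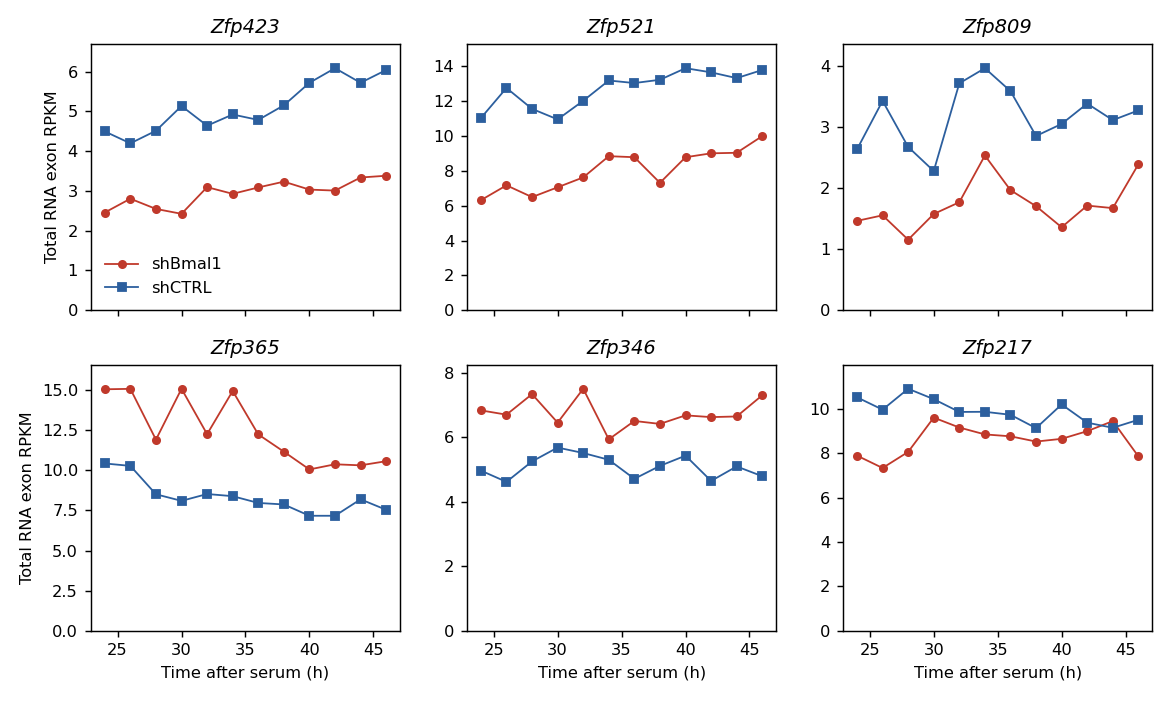
Exon RPKM in total RNA, as deposited, of 6 Zfp genes at each time after serum in shBmal1 (red circles) and shCTRL (blue squares), 1 library per point. Zfp423, Zfp521 and Zfp809 were lower in shBmal1 at every time point, and Zfp365 and Zfp346 higher at every time point, while for Zfp217 the deposited values cross at 44 h.

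Other members with a large fall in total exon were mostly low in level. Zfp825 had a median of 0.258 RPKM in shBmal1 and 0.648 RPKM in shCTRL (-0.95 ± 0.117), Zfp68 had 1.93 RPKM in shBmal1 and 3.28 RPKM in shCTRL (-0.78 ± 0.0883), and Zfp426 had 0.867 RPKM in shBmal1 and 1.49 RPKM in shCTRL (-0.68 ± 0.107). Zfp931, Zfp970 and Zfp53 followed with log2 fold changes of -0.68, -0.62 and -0.58. In each of these 6 genes single libraries of the lines overlapped, and the adjusted p-values lay between 1.32e-07 and 0.00044. Zfp281, a factor that restrains the pluripotency network, had 2.79, 3.84 and 5.55 RPKM in shBmal1 and 3.66, 5.31 and 6.16 RPKM in shCTRL, and was lower at 12 of 12 time points (-0.58 ± 0.0709, adjusted p = 4.03e-07). Zfp217, a subunit of corepressor complexes, was lower by less but with little spread, at 7.34, 8.71 and 9.61 RPKM in shBmal1 and 9.14, 9.87 and 10.9 RPKM in shCTRL (-0.29 ± 0.0349, adjusted p = 3.38e-07). Its deposited values overlapped and its scaled values did not.

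The higher members were led by Zfp365, which encodes a centrosome-associated protein. It had 10.1, 12.1 and 15.1 RPKM in shBmal1 total RNA and 7.17, 8.15 and 10.4 RPKM in shCTRL, and was higher at 12 of 12 time points (0.47 ± 0.0484, adjusted p = 3.29e-08). It was higher in 4sU exon (0.43 ± 0.0516), total intron (0.38 ± 0.0683) and 4sU intron (0.49 ± 0.0643) too, with adjusted p between 8.95e-07 and 0.000121. On RPKM as deposited its log2 fold change in 4sU intron was 0.02 (adjusted p = 0.731). Zfp346, whose product binds double-stranded RNA, had 5.94, 6.67 and 7.51 RPKM in shBmal1 and 4.62, 5.11 and 5.69 RPKM in shCTRL, and the groups did not overlap as deposited, while they did after scaling (0.31 ± 0.0480, adjusted p = 7.99e-06). In the other layers its log2 fold changes were 0.11 for 4sU exon, -0.04 in total intron and -0.07 in 4sU intron, with adjusted p of 0.196, 0.564 and 0.330.

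Zfp428 had a median of 9.30 RPKM in shBmal1 and 6.43 RPKM in shCTRL (0.41 ± 0.0823, adjusted p = 0.000179), and Zfp697 had 1.64 RPKM in shBmal1 and 1.16 RPKM in shCTRL (0.34 ± 0.0562, adjusted p = 1.87e-05). Zfp282, Zfp213, Zfp768, Zfp710 and Zfp692 rose by 0.26 to 0.30 log2 units. Zfp296, linked to pluripotency in mouse, ranged widely, from 0.116 to 0.862 RPKM in shBmal1 and from 0.292 to 0.652 RPKM in shCTRL. Its log2 fold change was 0.35 ± 0.146 (adjusted p = 0.0382), and the call was lost when any of the time points 26, 30, 32, 36, 38, 42 or 46 h was left out, with adjusted p between 0.0578 and 0.125. Zfp330 had a log2 fold change of 1.32, with 2.01 to 3.39 RPKM in shBmal1 and 0.723 to 1.41 RPKM in shCTRL. The deposited values of Zfp330 were divided by more than 1 transcript length across libraries, so its difference cannot be told apart from a change of length. It was also higher in total intron (0.17 ± 0.0539, adjusted p = 0.0121) and 4sU intron (0.21 ± 0.0641, adjusted p = 0.0122), where 1 length was used.

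Of 25 members named for their known roles, 11 were lower, 5 higher and 9 passed in neither direction in total exon. Of all genes tested 33.1% were lower and 34.3% higher. Besides those above, Zfp131 (-0.41 ± 0.0923), Zfp462 (-0.28 ± 0.0425), Zfp638 (-0.29 ± 0.0895) and Zfp146 (-0.24 ± 0.0871) fell, with adjusted p of 0.000554, 6.68e-06, 0.00701 and 0.0205. Zfp292 also fell, but its RPKM rested on more than 1 length. Zfp622 (0.20 ± 0.0361), Zfp384 (0.16 ± 0.0365) and Zfp687 (0.12 ± 0.0485) rose, with adjusted p of 6.23e-05, 0.000783 and 0.0289. The 9 that did not pass were Zfp110, Zfp143, Zfp148, Zfp207, Zfp326, Zfp503, Zfp598, Zfp703 and Zfp706. Zfp143, a transcription factor of small nuclear RNA genes and many mRNA promoters, had a log2 fold change of -0.08 ± 0.0744 (adjusted p = 0.322), and Zfp598, a ubiquitin ligase that acts on collided ribosomes, of -0.00 ± 0.0419 (adjusted p = 0.998), with more than 1 length behind its values.

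The lines' scaled values did not overlap for 11 members (4.70%) in total exon and 7 (2.99%) in 4sU exon, while this held for 12.8% and 6.51% of all genes tested. Genes of like level were not compared for this. In total exon the 11 members were Zfp180, Zfp217, Zfp236, Zfp251, Zfp330, Zfp423, Zfp521, Zfp629, Zfp646, Zfp651 and Zfp90, of which Zfp330 and Zfp629 had more than 1 length.

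The other layers gave fewer calls in the same direction. In 4sU exon 75 members were lower and 30 higher, while 26.9% of all genes were lower and 27.6% higher. On RPKM as deposited this split was 56 lower (23.9%) and 48 higher (20.5%), beside 19% and 37.7% of all genes. In total intron 73 of 221 members were lower and 27 higher, beside 27% and 28.6% of all 10348 genes. In 4sU intron 60 of 221 members were lower and 24 higher, beside 22.1% and 22.5% of all genes, and on RPKM as deposited 212 were lower and 0 higher, beside 90.3% and 1.64% of all genes, whose median was then -0.45. Of the 117 members lower in total exon, 70 were also lower in 4sU exon, which is 59.8% of the total exon list and 93.3% of the 4sU exon list. Of the 110 that were tested in 4sU intron, 46 were lower there, which is 41.8% of them and 76.7% of the 4sU intron list, and 3 were higher. These layers come from the same cultures.

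In all 4 layers 31 of the 221 members tested in each were lower (14%) and 8 higher (3.62%), beside 13.2% and 13% of the 10237 genes tested in each. The share of lower members was thus near that of all genes. The lower ones include Zfp57 and Zfp445, both known for guarding imprinted regions, Zfp809, Zfp521, Zfp217, Zfp462 and Zfp426, and the higher ones were Zfp213, Zfp330, Zfp365, Zfp384, Zfp408, Zfp579, Zfp687 and Zfp688. More than 1 length stood behind the values of 4 of the lower genes, Zfp287, Zfp606 and Zfp629 in total exon and Zfp57 in 4sU intron, and of 2 of the higher ones, Zfp384 in 4sU exon and Zfp330 in both exon layers. Across 209 members with 1 length, the line differences in total exon and 4sU exon had Pearson r of 0.916, and across 190 members those in total exon and 4sU intron had r of 0.461, as a description of genes in shared cultures.

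In the intron layer of 4sU RNA the scaling decides the direction of small changes. Its deposited RPKM were divided by totals 1.35 to 1.39 times the exon totals in the shBmal1 4sU libraries, and by totals equal to the exon totals in the others. Scaled values are therefore changes relative to the median gene. Among the genes that passed the test, Zfp775 fell most by the scaled values, with deposited values of 0.171, 0.257 and 0.342 RPKM in shBmal1 and 0.460, 0.517 and 0.582 RPKM in shCTRL (-0.57 ± 0.0602, adjusted p = 5.24e-07). Zfp469, Zfp251 and Zfp652 fell by 0.49, 0.42 and 0.40 log2 units. The groups of Zfp775 did not overlap as deposited. Zfp281 had a lower estimate (-0.58 ± 0.675) that did not pass (adjusted p = 0.506), with intron values listed at 0 in some libraries of both lines. Zfp687 rose by 0.43 ± 0.0512 log2 units on the scaled values (adjusted p = 1.99e-06), although its deposited values of 2.71, 3.08 and 3.74 RPKM in shBmal1 and 2.82, 3.15 and 3.69 RPKM in shCTRL overlapped almost wholly. Zfp770, Zfp574 and Zfp688 rose by 0.39, 0.38 and 0.33 log2 units on the scaled values and had estimates below 0 as deposited.

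In total intron, Zfp521 fell most, and Zfp128 (-0.60 ± 0.0896), Zfp57 (-0.55 ± 0.0920), Zfp809 (-0.54 ± 0.0689) and Zfp775 (-0.53 ± 0.0774) followed, with adjusted p between 2.59e-06 and 6.23e-05. Among the genes that passed the test, the largest rises after Zfp365 were in Zfp593 (0.37 ± 0.0875), Zfp428 (0.37 ± 0.0985) and Zfp408 (0.35 ± 0.0742), with adjusted p between 0.000634 and 0.0039. Zfp281 had a higher estimate (0.77 ± 0.726) that did not pass (adjusted p = 0.386), again with values listed at 0 in both lines. Zfp772 (0.34) had an adjusted p of 0.0377, and lost the call without 24, 28, 30, 36, 40, 44 or 46 h, with adjusted p of 0.0639 to 0.149. In 4sU exon Zfp282, Zfp574 and Zfp142 rose by 0.39, 0.33 and 0.31 log2 units. Zfp142 had 12.4, 13.4 and 15.3 RPKM in shBmal1 4sU RNA and 9.05, 10.2 and 11.3 RPKM in shCTRL 4sU RNA, without overlap.

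All 234 members could be placed on GRCm38.p6 by symbol, on 19 chromosomes, with 64 on chromosome 7, 26 on chromosome 17 and 21 on chromosome 8. There were 17 clusters of at least 4 members whose starts lay within 1 Mb of the next. They held 118 members, of which 63 were lower and 14 higher in shBmal1 total RNA, with a median log2 fold change of -0.19. Of the 116 members outside clusters 54 were lower and 19 higher, with a median of -0.12. Among all genes tested 33.1% were lower and 34.3% higher. Clustered members were lower in level, with a median mean exon RPKM of 2.21 against 3.14 outside. Neighbours of 1 cluster can be near-identical in stretches, and the sources used here do not say how reads that match several genes were counted, so the split between neighbours is uncertain.

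**Figure D3:**
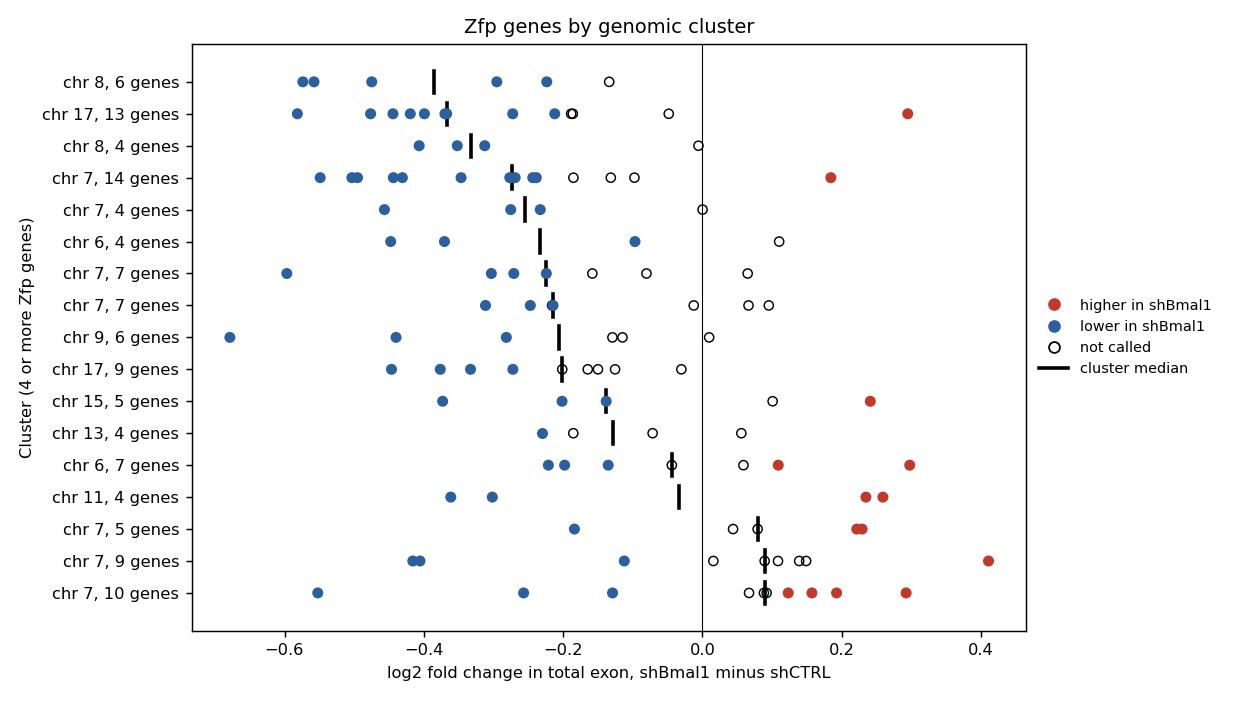
Log2 fold change in total exon, shBmal1 minus shCTRL, of the Zfp genes in each of the 17 clusters of 4 or more, with the clusters ordered by their median (black bar); filled circles passed the test (blue lower, red higher in shBmal1) and open circles did not. Medians run from -0.39 in a 6-gene cluster on chromosome 8 to 0.09 in a 10-gene cluster on chromosome 7.

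Clusters differed in direction. On chromosome 7, 10 of 14 members between bases 29768552 and 30169775 were lower, among them Zfp14, Zfp30 and Zfp382, and 1 was higher, Zfp568. On chromosome 17, 9 of 13 between bases 21008941 and 23564226 were lower, including Zfp51 and Zfp53, and 1 was higher, Zfp213. On chromosome 8, 5 of 6 between bases 69209018 and 69774911 were lower, of which Zfp930 (-0.57 ± 0.110) and Zfp866 (-0.56 ± 0.0857) fell most, and Zfp869 did not pass (-0.13 ± 0.104, adjusted p = 0.261). In contrast, of 10 members on chromosome 7 between bases 127233061 and 127885996, 4 were higher and 3 lower. In a group of 5 on chromosome 7 between bases 4915181 and 5053723 (Zfp628, Zfp579, Zfp524, Zfp784 and Zfp580) 2 were higher and 1 lower. Over all 234 members 50% were lower and 14.1% higher, and over all genes tested 33.1% and 34.3%. These differences between clusters were not tested.

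The 4sU/total ratio of a Zfp gene was above that of the median gene in nearly all members. The ratio is log2 of 4sU exon minus log2 of total exon RPKM in the same culture, with the median gene of each culture at 0, and sets RNA labelled while the cells had 4sU against all RNA of the culture. In shBmal1 127 of 234 members had a ratio of at least 0.5 above the median gene and 4 at least 0.5 below it (adjusted p under 0.05), while this held for 15.2% and 17% of all genes. In shCTRL 91 were above and 5 below, while 12.3% and 15.2% of all genes were. The members' median ratio was 0.52 in shBmal1 and 0.44 in shCTRL, and that of all genes 0.01 in both lines. Within the same range, 0.775 to 12.1 RPKM, the medians were 0.54 in shBmal1 and 0.46 in shCTRL for members, and 0.10 in both lines for all genes. With a pseudocount of 0.5 in place of 0.1 RPKM, which shrinks ratios of low genes, 73 members in shBmal1 and 58 in shCTRL were above. The shares of all genes given here belong to the pseudocount of 0.1 RPKM, so these 73 and 58 cannot be set against them. Uptake of 4sU and the uridine content of the transcripts were not analysed here.

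**Figure D4:**
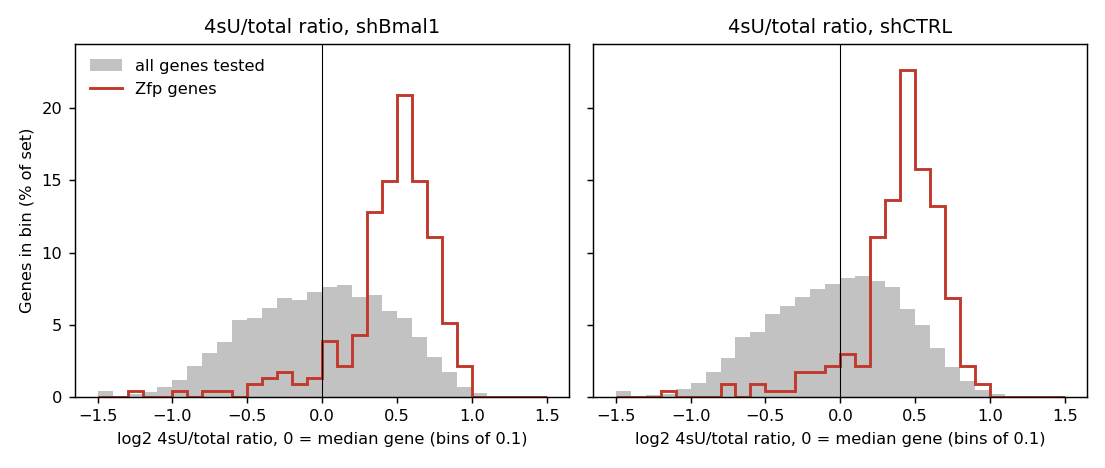
Share of the Zfp genes (red line) and of all genes tested (grey) in bins of the log2 4sU/total ratio, in shBmal1 (left) and shCTRL (right), with the median gene at 0; genes beyond 1.5 are in the outermost bins. The Zfp genes gather around 0.52 in shBmal1 and 0.44 in shCTRL.

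The members' median ratio stayed above 0 in each culture. In single cultures the median member lay at 0.42 to 0.62 in shBmal1 and at 0.40 to 0.49 in shCTRL, and between 85.5% and 92.3% of the members lay above 0 in every culture of either line. Members kept their order between the lines, with Pearson r of 0.936 and Spearman rho of 0.891 over 206 members with 1 length, in libraries that differ between the lines. With the members' mean level the ratio had Pearson r of -0.266 and Spearman rho of -0.13 over 234 members.

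Zfp169 and Zfp217 had the highest ratios. Zfp169 had a lowest, median and highest ratio of 0.72, 0.95 and 1.13 in shBmal1 cultures and of 0.66, 0.92 and 1.33 in shCTRL cultures, with fitted means of 0.94 ± 0.0429 in both. Zfp217 had 0.85, 0.95 and 1.18 in shBmal1 and 0.74, 0.86 and 1.00 in shCTRL. Zfp568, Zfp697, Zfp799, Zfp46, Zfp871 and Zfp12 followed, with fitted means of 0.83 to 0.92 in shBmal1 and 0.73 to 0.91 in shCTRL. In each of these 8 genes the lowest culture of either line lay above the median gene.

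Few members lay below the median gene. Zfp428 had ratios of -1.53, -0.89 and -0.35 in shBmal1 and -1.06, -0.79 and -0.36 in shCTRL, with fitted means of -0.94 ± 0.0694 in shBmal1 and -0.74 ± 0.0694 in shCTRL. Zfp580 lay at -0.74 ± 0.0468 in shBmal1 and -0.76 ± 0.0468 in shCTRL, Zfp771 at -0.61 ± 0.0439 in shBmal1 and -0.42 ± 0.0439 in shCTRL, and Zfp414 at -0.42 ± 0.0291 in shBmal1 and -0.52 ± 0.0291 in shCTRL. Zfp692, Zfp593, Zfp579 and Zfp362 had fitted means of -0.39 to -0.26 in shBmal1 and of -0.28 to -0.15 in shCTRL. Zfp511 had the lowest estimates of any member, -1.24 in shBmal1 and -1.15 in shCTRL, but its values rested on more than 1 length. Of these, Zfp580 and Zfp579 belong to the 5-gene group on chromosome 7 named above, whose median ratio of -0.26 was the only negative one among the 17 clusters, and Zfp524 of that group had more than 1 length.

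Between the lines the ratio was higher in shBmal1 for 31 members and lower for 7, beside 15.3% and 11.8% of all genes. The members' median difference was 0.06, and that of all genes 0.01. Of the 38 calls, 30 were in members with 1 length, 26 higher and 4 lower. Zfp809 had ratios of 0.29, 0.69 and 1.29 in shBmal1 and 0.08, 0.42 and 0.70 in shCTRL, which differed by 0.36 ± 0.0905 (adjusted p = 0.0067). Zfp521 (0.20 ± 0.0368, adjusted p = 0.0006) and Zfp423 (0.11 ± 0.0373, adjusted p = 0.0356) were higher too, so the drop of these genes was smaller in 4sU than in total RNA. Zfp942, Zfp14, Zfp961 and Zfp397 were higher by 0.32, 0.32, 0.25 and 0.21, with adjusted p between 0.0165 and 0.0444. Each of these 4 calls was lost without some single time points, with adjusted p of up to 0.136 for Zfp942 (without 26 h), 0.0605 for Zfp14 (without 42 h), 0.09 for Zfp961 (without 40 h) and 0.0738 for Zfp397 (without 34 h).

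The 4 lower members with 1 length were Zfp512, Zfp593, Zfp346 and Zfp771. Zfp512 had ratios of -0.30, 0.12 and 0.41 in shBmal1 and 0.17, 0.33 and 0.61 in shCTRL (-0.27 ± 0.0710, adjusted p = 0.0089), and Zfp593 had -0.75, -0.42 and 0.08 in shBmal1 and -0.33, -0.16 and 0.13 in shCTRL (-0.23 ± 0.0506, adjusted p = 0.00263). Zfp346 and Zfp771 differed by -0.21 ± 0.0650 and -0.19 ± 0.0620, and lost the call without some single time points, with adjusted p of up to 0.0748 for Zfp346 (without 34 h) and 0.0882 for Zfp771 (without 46 h). The ratios of the lines overlapped in all of these genes.

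**Figure D5:**
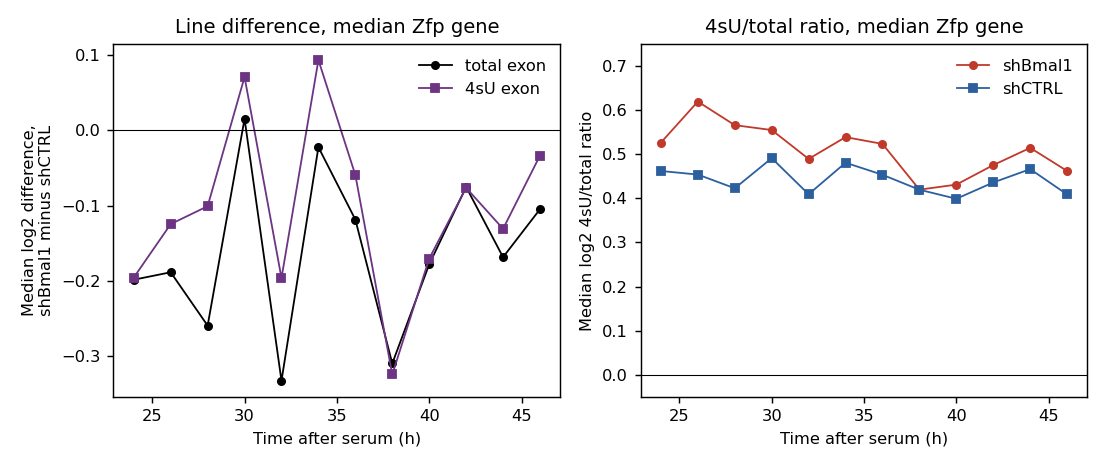
Left, the median over the 234 Zfp genes of the log2 difference between the shBmal1 and shCTRL cultures at each time after serum, in total exon (black circles) and 4sU exon (purple squares); right, the median log2 4sU/total ratio of the Zfp genes in each shBmal1 (red circles) and shCTRL culture (blue squares). The differences reach 0.02 in total exon at 30 h and 0.09 in 4sU exon at 34 h and are lowest at 32 and 38 h, while the ratios stay between 0.40 and 0.62.

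Few Zfp genes had a 24-h rhythm, and in each layer and line the share called lay below that of all genes when all time points were used. Most members are low in level, and rhythm shares were not compared with genes of like level. Rhythms were tested by a moderated F test of a cosine and a sine term in limma, and the amplitude is the height of the peak above the fitted mean, in log2 units. In total exon 3 members were called in shBmal1 (11% of all genes) and 1 in shCTRL (3.59%). In 4sU exon 17 were called in shBmal1 (18% of all genes) and 1 in shCTRL (1.99%). In total intron 6 members were called in shBmal1 (5.17% of all genes) and 0 in shCTRL (1.29%). There 18 members had an unadjusted p under 0.05 in shCTRL (8.14%, beside 14.4% of all genes). In 4sU intron 9 were called in shBmal1 (6.14% of all genes) and 0 in shCTRL (1.11%). There 12 members had an unadjusted p under 0.05 in shCTRL (5.43%, beside 13.1% of all genes). None of the calls of a 24-h rhythm held when a linear trend over time was added to the model. The share of all genes called under that model is not given here, so this loss cannot be set against it. The 12 time points cover a single 24-h cycle.

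Counts in shBmal1 also turned on single time points. The 17 of 4sU exon (7.26%) became 61 without 32 h (26.1%, beside 36.6% of all genes), 3 without 30 h (1.28%, beside 7.71%) and 2 without 40 h (0.855%, beside 5.87%). The 9 of 4sU intron became 25 without 32 h (11.3%, beside 15% of all genes) and 2 without 40 h (0.905%, beside 1.36%). The 3 of total exon became 10 without 32 h (4.27%, beside 16.6% of all genes) and 0 without 30 h or 40 h (beside 7.05% and 3.42%). The 6 of total intron became 0 without 36 h or 40 h, beside 2.42% and 0.387% of all genes. Without 30 h the 4sU intron count was 6, a share of 2.71% that lay above the 2.26% of all genes.

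Zfp367 was called in 3 layers of shBmal1. Its amplitude was 0.26 ± 0.0633 in total exon (adjusted p = 0.0297), 0.31 ± 0.0494 in 4sU exon (adjusted p = 0.0021) and 0.29 ± 0.0504 in 4sU intron (adjusted p = 0.0069), with peaks at 29.6, 29.1 and 27.3 h. In shCTRL its amplitudes were 0.14 in total exon and 0.12 in 4sU exon (adjusted p = 0.494 and 0.522). Zfp521 had an amplitude of 0.22 ± 0.0491 in shBmal1 total exon with a peak at 40.6 h (adjusted p = 0.015), and Zfp365 of 0.20 ± 0.0484 with a peak at 29.4 h (adjusted p = 0.0225). In shCTRL total exon they had 0.15 with a peak at 40.9 h and 0.15 with a peak at 26.6 h, and did not pass (adjusted p = 0.209 and 0.186). As the plot of 6 genes over time shows, Zfp521 ended higher and Zfp365 lower than at the start in both lines.

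In shCTRL, Zfp462 was called in total exon with an amplitude of 0.18 ± 0.0425 and a peak at 37.2 h (adjusted p = 0.0442), and Zfp423 in 4sU exon with 0.29 ± 0.0618 and a peak at 40.3 h (adjusted p = 0.0342). In shBmal1 4sU exon Zfp423 had 0.26 ± 0.0618 with a peak at 41.1 h and was called too (adjusted p = 0.0196). The largest amplitudes in shBmal1 4sU exon were those of Zfp934 (0.48 ± 0.108), Zfp219 (0.35 ± 0.0834) and Zfp277 (0.34 ± 0.0967), with peaks at 29.2, 43.4 and 30.8 h, and the values of Zfp277 rested on more than 1 length. In shBmal1 total intron Zfp658 had the largest, 0.40 ± 0.0818 with a peak at 36.2 h, and it had 0.23 ± 0.0447 with a peak at 36.1 h in 4sU intron. In 4sU intron Zfp469 (0.37 ± 0.0867) and Zfp740 (0.31 ± 0.0634) peaked at 43.4 and 43.0 h.

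With all time points, a difference in 24-h rhythm between the lines was called for no member. The limma test of the difference called 0 members in total exon and 0 in 4sU exon, beside 0.811% and 1.07% of all genes. An unadjusted p under 0.05 was held by 6 members (2.56%, beside 11.3% of all genes) and 24 members (10.3%, beside 19.5%). The test called 0 members in total intron and 0 in 4sU intron, beside 0.135% and 0.3% of all genes. There 13 members (5.88%, beside 8.48% of all genes) and 20 members (9.05%, beside 15.1%) had an unadjusted p under 0.05. In 4sU exon 12 members were called without 32 h (5.13%, beside 8.35% of all genes) and 2 without 26 h (0.855%, beside 4.73%). In total exon and in 4sU intron 1 member was called without 32 h, beside 1.58% and 2.37% of all genes. For a 12-h period, 0 members were called in total exon of shBmal1 and 0 in shCTRL, beside 0.0182% and 0% of all genes. An unadjusted p under 0.05 was held by 54 members in shBmal1 (23.1%, beside 24.2% of all genes). In shCTRL 6 had one (2.56%, beside 3.22%). In 4sU intron 0 members were called in either line, beside 0% of all genes in both. There 31 members had an unadjusted p under 0.05 in shBmal1 (14%, beside 19.6% of all genes). In shCTRL 10 had one (4.52%, beside 2.73%). In total intron of shBmal1 2 members were called (0.454% of all genes), Zfp593 with an amplitude of 0.49 ± 0.0875 and Zfp141 with 0.28 ± 0.0516 (adjusted p = 0.0487 for both). These 12-h counts also changed without 32 h, to 47 for total exon (20.1%, beside 18% of all genes), 19 for total intron (8.6%, beside 12.1%) and 8 for 4sU intron (3.62%, beside 6.92%) of shBmal1.

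Other zinc finger families can be read from their symbols. For comparison, 33.1% of all genes tested were lower and 34.3% higher in shBmal1 total RNA. Of 31 Zbtb genes, whose products pair fingers with a BTB domain, 15 were lower and 3 higher in shBmal1 total RNA, with a median log2 fold change of -0.12, and their median 4sU/total ratios were 0.62 in shBmal1 and 0.58 in shCTRL. Of 8 Zscan genes 4 were lower and 1 higher, and of 7 Zkscan genes 1 was lower and 1 higher. More than 1 length stood behind total exon for Zbtb2 and Zkscan3 among the higher genes and for Zscan21 among the lower, so these 3 differences cannot be told apart from a change of length. The genes of proteins that KRAB zinc fingers work through moved in both directions. Of 20 tested, 11 were lower and 6 higher in shBmal1 total RNA, and their median ratios were 0.09 in shBmal1 and 0.13 in shCTRL. Trim28, the corepressor itself, had 64.6, 82.4 and 98.8 RPKM in shBmal1 and 63.5, 65.6 and 77.1 RPKM in shCTRL, and was higher (0.21 ± 0.0450, adjusted p = 0.000298). Setdb1, the histone methyltransferase it recruits, had 4.84, 5.44 and 6.02 RPKM in shBmal1 and 5.78, 6.32 and 7.65 RPKM in shCTRL, and was lower (-0.33 ± 0.0424, adjusted p = 7.36e-07). Hdac1 (0.32) and Hdac2 (0.20) rose, and Morc3 (-0.47), Mphosph8 (-0.46), Trim24 (-0.42) and Tasor (-0.36), which act in heterochromatin silencing or belong to the TRIM28 family, fell.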

How the data were processed

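The authors deposited RPKM of exons and of introns for 11313 genes in 48 libraries, and the labels place these in 4 groups. The submitters' processing notes name Trim Galore, HOMER 4.11.1, mm10 and GRCm38.p6. No aligner is named in the sources used here.

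Library totals and feature lengths were recovered from the steps of the deposited RPKM, with lengths taken as equal within 0.1%. Of the 234 members, 21 in total exon, 11 in 4sU exon, 11 in total intron and 15 in 4sU intron had more than 1 length behind their values, and such a difference may come from the length. No pair of libraries within a group shared more than 0.00884% of its values. RPKM were scaled by median ratios within a layer, and log2 values were taken after adding pseudocounts of 0.1 (exon) and 0.02 (intron) RPKM, so folds of low genes are understated. Tested were genes with a mean over all libraries of 0.5 exon or 0.1 intron RPKM or more, which kept 234 members for exons and 221 for introns. In R 4.3.3, limma 3.58.1 (trend, robust) fitted the 24 libraries of a layer with, per line, a mean and cosine and sine terms of 24 and 12 h. P-values are two-sided, with Benjamini-Hochberg adjustment over all genes of the layer. The code was tested on simulated data.

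The members and all lists were chosen with earlier results of these data known. Genes were named by level, by the largest called changes with 1 length (10 per direction in total exon, 5 elsewhere), by the 8 highest and 8 lowest ratios, by amplitude, and from 25 members with known roles. Zfp330, Zfp511 and genes listed by overlap, by call in every layer, by length, by cluster or by E-box were named after their values were seen. Promoters are RefSeq's. Protein domains were not analysed here. Alternatives were values as deposited, other pseudocounts and filters, 1 length only, no time terms, the tested period only, a linear trend, the time point as a block, and leaving out each time point.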

Additional observations from a re-analysis of the deposited data

Results flagged for a closer look

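The 4sU/total ratio was higher in shBmal1 than in shCTRL for 31 members and lower for 7, by limma's test of the difference between the lines. These are 13.2% and 2.99% of the members, beside 15.3% and 11.8% of all genes tested, so the share that was higher was near that of all genes. Among members with 1 length, 26 were higher and 4 lower. Without 34 h the counts were 19 and 4 (8.12% and 1.71%), beside 11.6% and 8.79% of all genes. The amount of RNA that entered the pull-down also differed between the lines, and its part in these counts cannot be told apart from the hairpin.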

How the results depend on the processing

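Of the counts over members, 476 recomputed values stayed within 1.5 times and 100 did not, and of the values of named genes 2046 kept direction and call, 236 lost the call and 4 changed sign; the causes were not tested. The counts that follow show how far the members' counts moved. Except where shares were given above, they stand without those of all genes and cannot be read as particular to the Zfp genes. On RPKM as deposited, 57 members were higher in shBmal1 total exon, 48 in 4sU exon and 0 in 4sU intron, where 212 were lower. There Zfp687 (-0.044), Zfp770 (-0.065), Zfp574 (-0.088) and Zfp688 (-0.14) changed sign, since the intron totals differ between the lines. Also as deposited, 24-h calls were 2 in shCTRL total exon and 1 in shCTRL total intron, and 12-h calls in shBmal1 were 1 in total exon and 9 in total intron. With 1 length only, 4 members had a lower ratio in shBmal1 and 3 lay below the median gene in shCTRL. A pseudocount 5 times larger left 73 members above the median gene in shBmal1 and 58 in shCTRL, and the share of all genes at that pseudocount is not given here. A linear trend left 0 members with a 24-h rhythm in total exon and 4sU exon of both lines and in total intron and 4sU intron of shBmal1, and 0 with a 12-h rhythm in shBmal1 total intron. Fitting the tested period only gave 24-h counts of 0 in shCTRL total exon and 1 in shBmal1 total intron, and a 12-h count of 0 in shBmal1 total intron, which was also 0 with no filter. With no filter 2 members had a 24-h rhythm in shCTRL 4sU intron. When each time point was left out in turn, the ratio was higher in shBmal1 for 19 to 31 members and lower for 4 to 8. Counts of 24-h rhythms then ran, in shBmal1, from 0 to 10 in total exon, 2 to 61 in 4sU exon, 0 to 6 in total intron and 2 to 25 in 4sU intron. In shCTRL they ran from 0 to 2 in total exon, 0 to 1 in 4sU exon, 0 to 2 in total intron and 0 to 1 in 4sU intron. Counts of 12-h rhythms in shBmal1 ran from 0 to 47 in total exon, 0 to 8 in 4sU intron and 0 to 19 in total intron, and differential rhythms from 0 to 1 in total exon and in 4sU intron. The counts of 61, 47, 25, 19, 10 and 8 rhythms came without 32 h. Counts of line differences outside the ratio stayed within 1.5 times, at 101 to 123 lower and 27 to 36 higher in total exon. The labels give no replicate numbers. With the time point as a replicate block, 115 members were lower and 33 higher in total exon, and the ratio was higher for 21 and lower for 7. Cultures of the same time correlated at -0.178 to 0.407 in total exon, and 4 of 12 correlated best with their own time. Depth limits low members, since the lowest had 25.8 reads per library on average in shBmal1 total RNA.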
